A study of Homo sapiens with 8 samples.

Results

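The genes described here are the long intergenic non-coding RNAs that carry a LINC number as their symbol and that were expressed in these lung cancer cells. A gene was included when its symbol was LINC followed by digits and its mean over the 8 libraries was at least 1 CPM (counts of the gene per 1000000 gene-assigned counts of the library). This gave 218 genes out of 2264 with such a symbol and out of 61228 genes listed. Of the 2264, 938 were at 0 in every library and 2046 in all were under 1 CPM. The members were thus chosen by their mean level over all libraries, and neither the cell line nor the treatment entered the choice. A gene that is high in a single group can still reach the limit through that group, so differences between groups are partly built into such members. The members nearest the limit were LINC02925 at 1.01 CPM and LINC00842 at 1.03 CPM, and the genes just outside were LINC00526 at 0.996 CPM and LINC01134 at 0.985 CPM.

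RNA was measured in H1975 and HCC44, established human lung cancer cell lines, both with the genotype label WT. Cells of each line received either the solvent DMSO or ACBI1, and the labels give 1 mM ACBI1 and 96 hours. That concentration is far above those usual for a degrader, so its unit is uncertain. ACBI1 is a bifunctional molecule that brings the chromatin remodelling proteins SMARCA2, SMARCA4 and PBRM1 to the VHL ubiquitin ligase for degradation. The 4 groups held 2 libraries each. No label says that replicates came from separate cultures, so each p-value measures the spread between these libraries, which may be technical.

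Long intergenic non-coding RNAs are transcribed, usually spliced and often polyadenylated, but they are not known to encode proteins of typical size. Many are made in few cell types and at low levels, and their promoters and nearby enhancers depend on chromatin that remodelling complexes such as SWI/SNF keep open. Some have been studied as regulators of growth in lung and other cancers, while most have no assigned function.

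Gene-assigned counts came to 62467286 to 70455517 per library, and members held 0.11 to 0.201% of them. All 218 members passed the low-count filter, which left 21307 genes tested. The summed level of the epithelial markers EPCAM, CDH1, KRT8, KRT18 and KRT19 was 1034 to 2269 CPM in H1975 and 449 to 536 CPM in HCC44. A sum does not show that each marker was present. By the test described below, all 5 were lower in HCC44 than in H1975 under DMSO (median log2 -3.03), as were 36.4% of all genes. The alveolar factor NKX2-1 was at 19.2 to 27.5 CPM in H1975 and at 0 to 0.0318 CPM in HCC44, and the surfactant gene SFTPC was at or near 0 in every library. Of 3 leukocyte markers, CD3E and PTPRC were at 0 to 0.0480 CPM and CD14 was tested, with a summed level of 0.768 to 3.43 CPM. SMARCA2 was 60.5 and 70.7 CPM under DMSO and 40.3 and 41 CPM with ACBI1 in H1975, and 58.9 and 58.7 CPM against 68.1 and 53.7 CPM in HCC44. As ACBI1 removes proteins, the RNA of its targets does not check the treatment. The marker and SMARCA2 levels and the levels below are CPM scaled by TMM factors. These factors correct each library for shifts in its overall composition. Means over the 8 libraries were not scaled, nor were the median, the count reaching 10 CPM and the levels per kilobase drawn from them.

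Promoter sequences are shown for 8 members that fell or rose with ACBI1 in both lines, because they differ in a short motif counted further on. Each window runs from 250 bases before the annotated start to 50 bases after it, on the gene's own strand, as given by RefSeq for GRCh38.p14. Capitals mark each match to TGANTCA, the sequence bound by AP-1, a dimer of FOS and JUN family proteins, on either strand. LINC00973 lies at chr3:98914316-98914615, LINC01411 at chr5:174336104-174336403, LINC01094 at chr4:78645744-78646043, LINC00702 at chr10:4243863-4244162 on the minus strand and LINC02762 at chr11:112270499-112270798. These 5 fell in both lines and hold the motif, but the H1975 calls of LINC00702 and LINC02762 were lost with some libraries left out. LINC02742 at chr11:28901987-28902286 had the largest fall in H1975 and holds none. LINC00963 at chr9:129488410-129488709 and LINC00592 at chr12:52210680-52210979 rose in both lines.
LINC00973: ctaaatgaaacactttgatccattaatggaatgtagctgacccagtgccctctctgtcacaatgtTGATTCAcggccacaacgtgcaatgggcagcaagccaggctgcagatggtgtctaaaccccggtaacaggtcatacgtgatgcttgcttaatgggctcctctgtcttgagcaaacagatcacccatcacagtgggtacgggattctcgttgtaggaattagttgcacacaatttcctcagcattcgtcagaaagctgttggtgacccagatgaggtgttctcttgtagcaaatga
LINC01411: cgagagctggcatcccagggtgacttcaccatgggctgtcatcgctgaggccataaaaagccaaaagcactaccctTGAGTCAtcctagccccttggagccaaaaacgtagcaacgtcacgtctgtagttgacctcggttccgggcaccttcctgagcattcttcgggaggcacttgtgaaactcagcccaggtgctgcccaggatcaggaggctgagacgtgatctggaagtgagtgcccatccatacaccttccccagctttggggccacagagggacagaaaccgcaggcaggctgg
LINC01094: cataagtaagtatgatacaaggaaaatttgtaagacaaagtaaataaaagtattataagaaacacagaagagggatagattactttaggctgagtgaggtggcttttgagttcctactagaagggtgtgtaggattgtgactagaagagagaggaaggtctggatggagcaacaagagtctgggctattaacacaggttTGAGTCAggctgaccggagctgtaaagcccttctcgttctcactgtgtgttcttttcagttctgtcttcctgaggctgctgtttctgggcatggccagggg
LINC00702: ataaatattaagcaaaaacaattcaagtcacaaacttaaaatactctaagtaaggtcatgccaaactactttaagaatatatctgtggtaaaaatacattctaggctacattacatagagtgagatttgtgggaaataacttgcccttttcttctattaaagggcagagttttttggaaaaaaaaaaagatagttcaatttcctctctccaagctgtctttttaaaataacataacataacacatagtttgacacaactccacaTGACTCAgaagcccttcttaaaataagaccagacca
LINC02762: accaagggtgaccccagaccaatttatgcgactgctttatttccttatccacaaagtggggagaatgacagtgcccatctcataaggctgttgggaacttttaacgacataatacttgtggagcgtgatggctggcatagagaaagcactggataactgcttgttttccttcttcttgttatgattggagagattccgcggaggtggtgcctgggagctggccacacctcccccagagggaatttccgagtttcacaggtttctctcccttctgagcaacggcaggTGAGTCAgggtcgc
LINC02742: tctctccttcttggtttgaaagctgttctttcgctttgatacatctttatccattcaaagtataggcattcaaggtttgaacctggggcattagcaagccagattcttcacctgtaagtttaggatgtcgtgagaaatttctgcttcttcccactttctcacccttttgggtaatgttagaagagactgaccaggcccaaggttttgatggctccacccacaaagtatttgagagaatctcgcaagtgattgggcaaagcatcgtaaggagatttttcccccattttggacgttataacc
LINC00963: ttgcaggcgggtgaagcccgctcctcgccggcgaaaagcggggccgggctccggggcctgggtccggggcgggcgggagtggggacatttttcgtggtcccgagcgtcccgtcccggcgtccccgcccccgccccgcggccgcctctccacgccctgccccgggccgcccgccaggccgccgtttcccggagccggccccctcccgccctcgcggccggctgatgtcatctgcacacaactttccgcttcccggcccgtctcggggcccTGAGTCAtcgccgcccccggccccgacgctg
LINC00592: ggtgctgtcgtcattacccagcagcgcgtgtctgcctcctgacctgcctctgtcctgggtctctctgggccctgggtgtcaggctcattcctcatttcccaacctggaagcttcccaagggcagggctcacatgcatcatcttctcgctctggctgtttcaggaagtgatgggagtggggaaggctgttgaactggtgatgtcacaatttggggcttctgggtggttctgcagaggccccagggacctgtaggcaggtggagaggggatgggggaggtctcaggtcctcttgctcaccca

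The most abundant member was LINC00963, a multi-exon transcript studied in several cancers, at an unscaled mean of 185 CPM over the 8 libraries. LINC00662 followed at 63.0 CPM, then LINC02693 at 51.9, LINC00665 at 50.01 and LINC01278 at 47.1 CPM. The median member was at 2.74 CPM, and 36 of 218 reached 10 CPM. CPM favours long transcripts. Per kilobase of merged exons, known for 216 members, LINC02945 came first at 15.7 CPM per kb and LINC00963 second at 14.1, while LINC02693 dropped to place 46 at 3.51. Some abundant members were not called with ACBI1 in either line. LINC00667 was 27.1 and 28.4 CPM in H1975 under DMSO, 27.8 and 30 with ACBI1, 28.7 and 27.3 in HCC44 under DMSO and 31.5 and 24.6 with ACBI1. It was not called in any comparison. LINC00662 and LINC01278 were also not called with ACBI1, and both were higher in H1975 under DMSO, by -0.83 and -1.11 log2 for HCC44 against H1975. LINC01278 was called in HCC44 without HCC44 ACBI1 replicate 1 (-0.34). LINC03061 varied widely between H1975 replicates, at 51.1 and 25.7 CPM in H1975 under DMSO and 77.3 and 29.4 CPM with ACBI1. In HCC44 it was 3.64 and 4.07 and then 1.25 and 2.20 CPM (adjusted p = 0.180), and it was called there with HCC44 fitted alone (-1.15, adjusted p = 0.0161).

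Under DMSO, 166 of the 218 members (76.1%) differed between the lines at an adjusted p under 0.05, against 67.9% of all genes tested. Every adjusted p here comes from edgeR's quasi-likelihood test over all 8 libraries, with Benjamini-Hochberg adjustment over the 21307 genes. More members were higher in H1975 than in HCC44. There were 110 members (50.5%) higher in H1975, against 36.4% of all genes, and 56 (25.7%) higher in HCC44, against 31.6%. The median log2 fold change, HCC44 against H1975, was -0.54 over members and -0.08 over all genes. A difference of at least 2-fold was called for 131 members, and for 42.7% of all genes. A high level in either line helps a gene reach the inclusion limit. These shares therefore describe the members and are no test of line specificity. As these are bulk cultures, fewer cells making a transcript and less transcript per cell cannot be told apart.

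**Figure D1:**
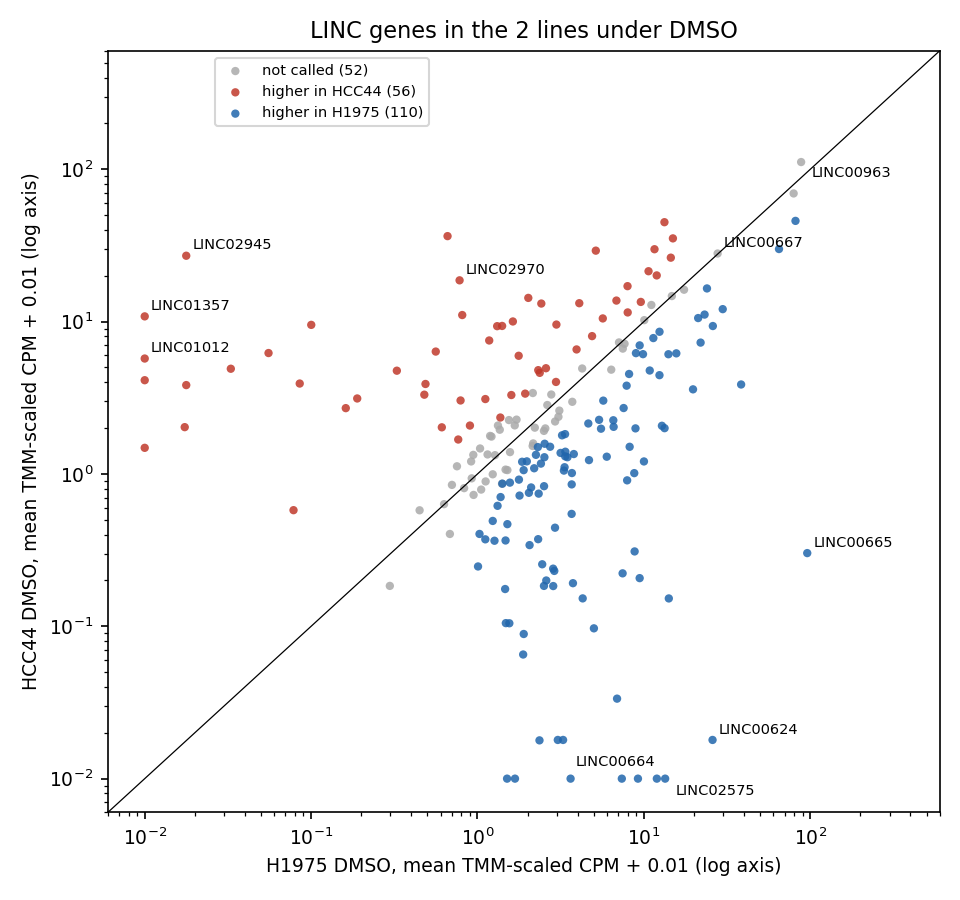
Mean level of each of the 218 LINC genes under DMSO in H1975 (horizontal) and HCC44 (vertical), as TMM-scaled CPM plus 0.01 on log axes, with the diagonal marking equal levels. Of the points, 110 were called higher in H1975, 56 higher in HCC44 and 52 were not called, and the genes along the left and lower edges were at or near 0 counts in one of the lines.

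A group of 28 members was restricted to a line, here meaning a mean of at least 1 CPM under DMSO in that line and at most 0.1 CPM in the other. This is 12.8% of members, against 4.52% of all genes tested. H1975 had 17 of them and HCC44 had 11. Because a high level in a line helps a gene reach the inclusion limit, this share describes the members and is no test of line specificity.

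In H1975, LINC02575 was 13.4 and 13.5 CPM and LINC00960 was 8.88 and 9.52 CPM, and neither had a count in the HCC44 DMSO libraries. Against a floor of 3 counts over the HCC44 group, LINC02575 was 567-fold and LINC00960 389-fold higher in H1975. The exact lower 95% limits from counting error alone were 460 and 316. LINC02474 was 14.5 and 9.39 CPM in H1975 with 0 counts in all 4 HCC44 libraries. This is 502-fold against that floor under DMSO (exact lower limit, 408). LINC00624 was 23 and 28.7 CPM in H1975, where 3422 counts stood against 1 in HCC44, a ratio of 3285 (exact 95% limits from counting error alone, 589 and 129778). In GENCODE 29, LINC00624 lies across CHD1L on the opposite strand and LINC00960 across ZNF717, with overlapping exons in both cases. RefSeq instead puts their nearest coding genes at 23626 bases (BCL9) and 5108 bases (FRG2C). As the annotation and strand setting used for counting are not known, reads of the coding genes cannot be told from theirs. LINC01291 (3.45 and 3.79 CPM) and LINC01293 (3.63 and 2.88 CPM) adjoin on chromosome 2 and were both near 0 in HCC44. LINC01511, on chromosome 5 near the dopamine transporter gene SLC6A3, was 13.7 and 14.5 CPM in H1975 and 0.191 and 0.0940 CPM in HCC44.

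LINC00665 did not meet the restriction rule but had the largest gap in CPM between the lines among the members. It was 93.8 and 97.9 CPM in H1975 and 0.350 and 0.235 CPM in HCC44 under DMSO, a log2 fold change of -8.35 ± 0.21 (adjusted p = 2.37e-10). With ACBI1 it was 0.736 and 0.425 CPM in HCC44.

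In HCC44, LINC02945 was 23.5 and 30.7 CPM under DMSO, with 1 count in the H1975 DMSO libraries and 3433 in HCC44. LINC01357 was 10.5 and 11.1 CPM and LINC01012 was 6.01 and 5.42 CPM, both with 0 counts in H1975 DMSO, so they were at least 476-fold and at least 251-fold higher in HCC44. LINC00165 (4.67 and 3.56 CPM) and LINC00163 (4.23 and 3.42 CPM) lie next to each other on chromosome 21. Against that floor LINC00165 was 181-fold higher in HCC44 (exact lower limit, 147). The neighbouring coding gene SLX9 was expressed in both lines, at 37.1 and 36.7 CPM in H1975 and 52 and 50.2 CPM in HCC44. LINC02970, near the organic anion transporter gene SLCO4A1, was not restricted but was 19.4 and 17.9 CPM in HCC44 against 0.683 and 0.858 CPM in H1975 (log2 4.59 ± 0.21, adjusted p = 1.37e-08).

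Members on chromosome 19 leaned towards H1975, as did those on several other chromosomes. Of 11 there, 9 were higher in H1975 and 1 in HCC44, while 51.0% of all tested genes on this chromosome were higher in H1975. Several sit among the zinc finger genes of this chromosome. LINC00664 was 8.15 and 6.57 CPM in H1975 and 0 in every HCC44 library. The zinc finger gene ZNF429 was 53.1 and 53 CPM against 0.0318 and 0 CPM. In GENCODE, LINC00664 overlaps the exons of ZNF429 on the same strand, while RefSeq puts this gene at a distance of 2364 bases. As the annotation used for counting is not known, reads of ZNF429 cannot be told from those of LINC00664. LINC01224, beside ZNF91, was 7.67 and 6.11 CPM in H1975 and 0 and 0.0470 CPM in HCC44. LINC01535, beside ZNF383, was 2.98 and 3.08 CPM and 0.0159 and 0 CPM. LINC00663, beside ZNF506, was 9.36 and 10.6 CPM and 1.05 and 1.35 CPM. Chromosome 7 (14 of 18 members higher in H1975) and chromosome 10 (7 of 9) leaned likewise. So did chromosomes 16 (6 of 8) and 22 (7 of 9). Of all tested genes on them, 51.3%, 55.4%, 50.3% and 57.1% were higher in H1975. The order was the other way on chromosome 21, where 8 of 11 members and 55.6% of all tested genes were higher in HCC44. More members were also higher in HCC44 than in H1975 on chromosomes 1 (9 against 7), 6 (6 against 2) and 17 (2 against 1). Of all tested genes on them, 47.5%, 45.3% and 41.6% were higher in HCC44 and 25.8%, 24.4% and 30.1% in H1975. The same held for members on chromosomes 9 (2 against 1), 11 (5 against 2) and 15 (2 against 1). All tested genes on these leaned the other way, with 31.4%, 33.4% and 31.7% higher in HCC44 and 39%, 35.9% and 33.6% in H1975. The copy number of these chromosomes was not measured, and its part was not tested.

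With ACBI1, 80 members (36.7%) were called in H1975, against 31.3% of all genes, and 93 (42.7%) in HCC44, against 34.9%. In H1975 48 rose (22%, against 14.6% of all genes) and 32 fell (14.7%, against 16.7%). In HCC44 64 rose (29.4%, against 17.5%) and 29 fell (13.3%, against 17.4%). A high level in either treatment helps a gene reach the inclusion limit. Under DMSO, 10 members had a mean below 1 CPM in both lines. These shares therefore describe the members and are no test of how LINC genes respond. The median log2 fold change was 0.01 over members and -0.01 over all genes in H1975, and 0.22 and 0.01 in HCC44. Changes of at least 1 on the log2 scale were called for 51 members in H1975 and 62 in HCC44, which compares with 12.4% and 14.7% of all genes. The split in H1975 depended on scaling. With library totals in place of TMM factors the median over all genes moved to 0.18, and 66 members rose and 20 fell. Without H1975 ACBI1 replicate 2, 53 members (24.3%) and 16.5% of all genes were called in H1975. Cell type markers moved in the same libraries. In H1975 3 of 5 epithelial markers fell, with sums of 2269 and 2152 CPM under DMSO and 1204 and 1034 CPM with ACBI1. Of 3 fibroblast markers, 2 fell and 1 rose in H1975 (sums 71.8 and 48.8 CPM, then 30.4 and 25.4 CPM), and 1 rose and 1 fell in HCC44 (91.8 and 73.4 CPM, then 203 and 406 CPM). Of 3 endothelial markers, 1 rose in H1975 and 2 fell in HCC44 (4.01 and 3.32 CPM, then 1.04 and 1.12 CPM). The leukocyte marker CD14 fell in both lines. Their part in the members' changes was not tested.

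The summed level of all members was 1491 and 1449 CPM in H1975 under DMSO and 1758 and 1747 CPM with ACBI1, with no overlap between groups. In HCC44 it was 1255 and 1212 CPM under DMSO and 1483 and 1375 CPM with ACBI1. Without LINC00963 the HCC44 sums were 1128 and 1115 CPM under DMSO and 1128 and 1128 CPM with ACBI1. In H1975 the sums without LINC00963 were 1404 and 1359 CPM under DMSO and 1544 and 1507 CPM with ACBI1.

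Of the 218 members, 25 rose in both lines (11.5%, against 5.83% of all genes), 13 fell in both (5.96%, against 7.08%) and 7 were called in opposite directions (all genes, 2.23%). A further 35 were called in H1975 and not in HCC44, 48 in HCC44 and not in H1975, and 90 in neither. The rises include members that reached the inclusion limit through treated libraries, such as LINC00592, so these shares are no test. Across the 218 members the log2 fold changes of the lines had a Pearson correlation of 0.44 and a Spearman correlation of 0.47, a description across genes that are not independent replicates. The H1975 and HCC44 comparisons share no library. With each of the 8 libraries left out in turn, 13 of the 25 shared rises and 7 of the 13 shared falls kept both calls. The same ones kept them under every other setting in which they could be judged. LINC00605, a shared rise, could be judged in HCC44 in 5 of the 6 other settings. None of the 7 opposite members did.

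**Figure D2:**
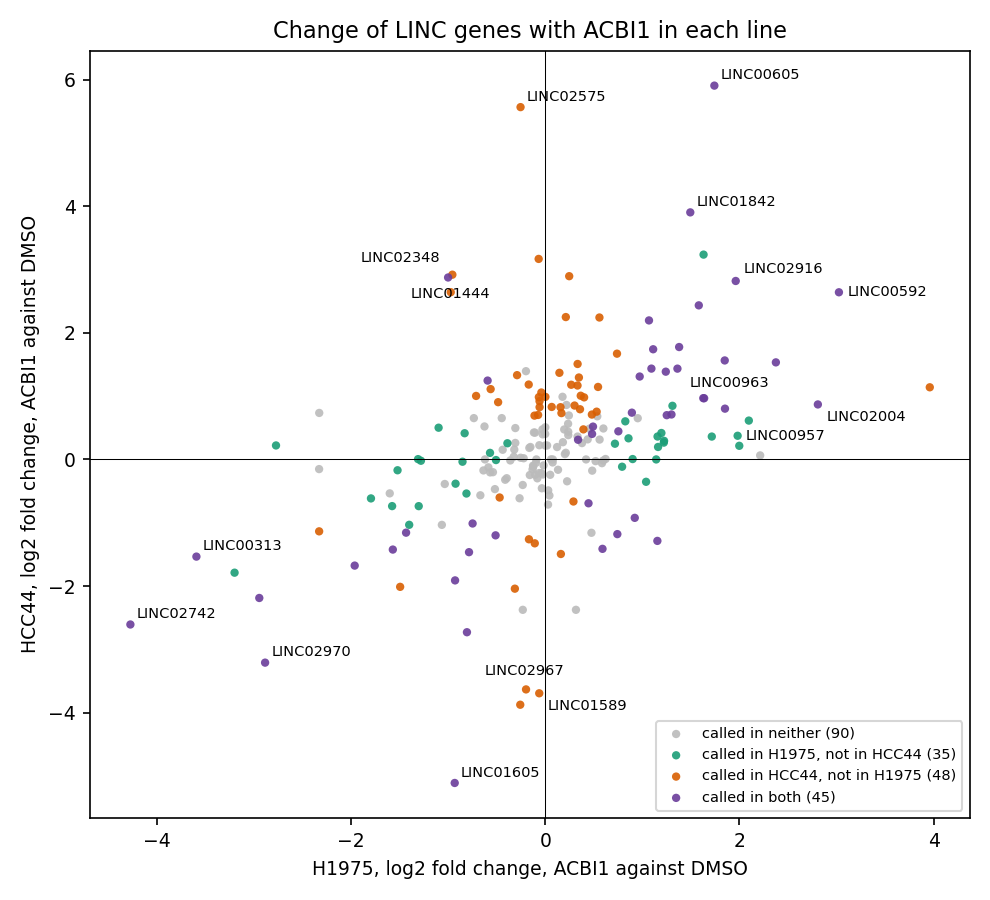
Log2 fold change with ACBI1 against DMSO in H1975 (horizontal) and HCC44 (vertical) for each of the 218 LINC genes, coloured by whether the gene was called in neither line (90), in H1975 (35), in HCC44 (48) or in both (45). The upper right and lower left corners hold the shared rises and falls, such as LINC00592 and LINC02742, and the fitted values of LINC02575, LINC00605, LINC01036 and LINC01357 rest on groups at 0 counts and depend on the prior count.

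Among the shared rises, LINC00963 was the most abundant. It went from 86.9 and 89.3 CPM to 213 and 239 CPM in H1975 and from 127 and 96.5 CPM to 356 and 247 CPM in HCC44. All 4 treated libraries lay above all 4 untreated ones, and the log2 fold changes were 1.36 ± 0.18 (SE; adjusted p = 0.000659) and 1.43 ± 0.18 (adjusted p = 0.000339). The lines did not differ in this response at the threshold, with a difference of 0.07 ± 0.25.

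LINC00592 had the largest shared rise in H1975, from a low start. It was 0.264 and 0.311 CPM under DMSO and 2.47 and 2.23 CPM with ACBI1 in H1975, a log2 fold change of 3.02 ± 0.38 (adjusted p = 0.000253). In HCC44 it was 0.254 and 0.0940 CPM and 0.880 and 1.31 CPM, 2.64 ± 0.42 on the log2 scale (adjusted p = 0.000719), and 3.51 without HCC44 DMSO replicate 1. This gene lies within the type II keratin cluster on chromosome 12, across KRT80 on the other strand. The nearest coding gene outside it, KRT7, a keratin of simple epithelia, fell in H1975 by 1.07 ± 0.17 log2 and rose in HCC44 by 1.09 ± 0.17 log2.

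LINC02916, near the splicing factor gene HNRNPF, rose from 2.47 and 2.69 CPM to 10.1 and 10.1 CPM in H1975 (log2 1.96 ± 0.22) and from 0.254 and 0.125 CPM to 1.34 and 1.35 CPM in HCC44 (log2 2.82 ± 0.31, and 3.40 without HCC44 DMSO replicate 1). LINC01270, on chromosome 20 with CEBPB as its nearest coding gene, rose from 3.38 and 4.02 CPM to 11.6 and 15.1 CPM and from 2.91 and 3.02 CPM to 9.63 and 7.91 CPM, with log2 fold changes of 1.85 ± 0.19 and 1.56 ± 0.20. Part of it overlaps LINC01271 on the other strand. LINC01842 rose in both lines but more in HCC44, where it went from 0.127 and 0.0627 CPM to 1.30 and 1.59 CPM. In H1975 it went from 1.51 and 1.43 CPM to 3.94 and 4.35 CPM, and the difference between the responses was 2.41 ± 0.45 log2 (adjusted p = 0.00507). Groups of the same line did not overlap for any of these 3 genes, as for 67.3% of all genes tested in H1975 and 66.8% in HCC44.

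LINC00857, a divergent neighbour of ANXA11, LINC00886, LINC00910 and LINC01515 also rose in both lines and kept both calls with each library left out. LINC00910 went from 2.93 and 2.97 to 6.54 and 7.44 CPM in H1975 and from 4.05 and 3.96 to 10.9 and 10.1 CPM in HCC44. LINC00886 went from 2.64 and 2.50 to 6.89 and 9.10 CPM and from 5.29 and 4.58 to 9.38 and 9.91 CPM. The smallest shared rises were less firm. LINC01128 rose by 0.34 and 0.31 log2, and its call ended in H1975 without any of 6 libraries (log2 0.29 without H1975 DMSO replicate 1). In HCC44 its call was kept in 1 of 8 fits with a library left out. It was also lost there with DESeq2, with RLE size factors and with no low-count filter. LINC02004 rose from 0.419 and 0.458 to 2.75 and 3.42 CPM in H1975. Its smaller change in HCC44 was from 0.477 and 0.658 to 0.896 and 1.18 CPM (adjusted p = 0.0432). That HCC44 call was kept in 1 of 8 fits with a library left out (log2 0.65 without HCC44 DMSO replicate 1). DESeq2 and HCC44 fitted alone did not keep it either. LINC02901 rose from 1.21 and 0.784 to 4.85 and 5.50 CPM in H1975, and its call in HCC44 ended without HCC44 DMSO replicate 2 or ACBI1 replicate 2, the latter moving the log2 fold change from 1.53 to 1.01.

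**Figure D3:**
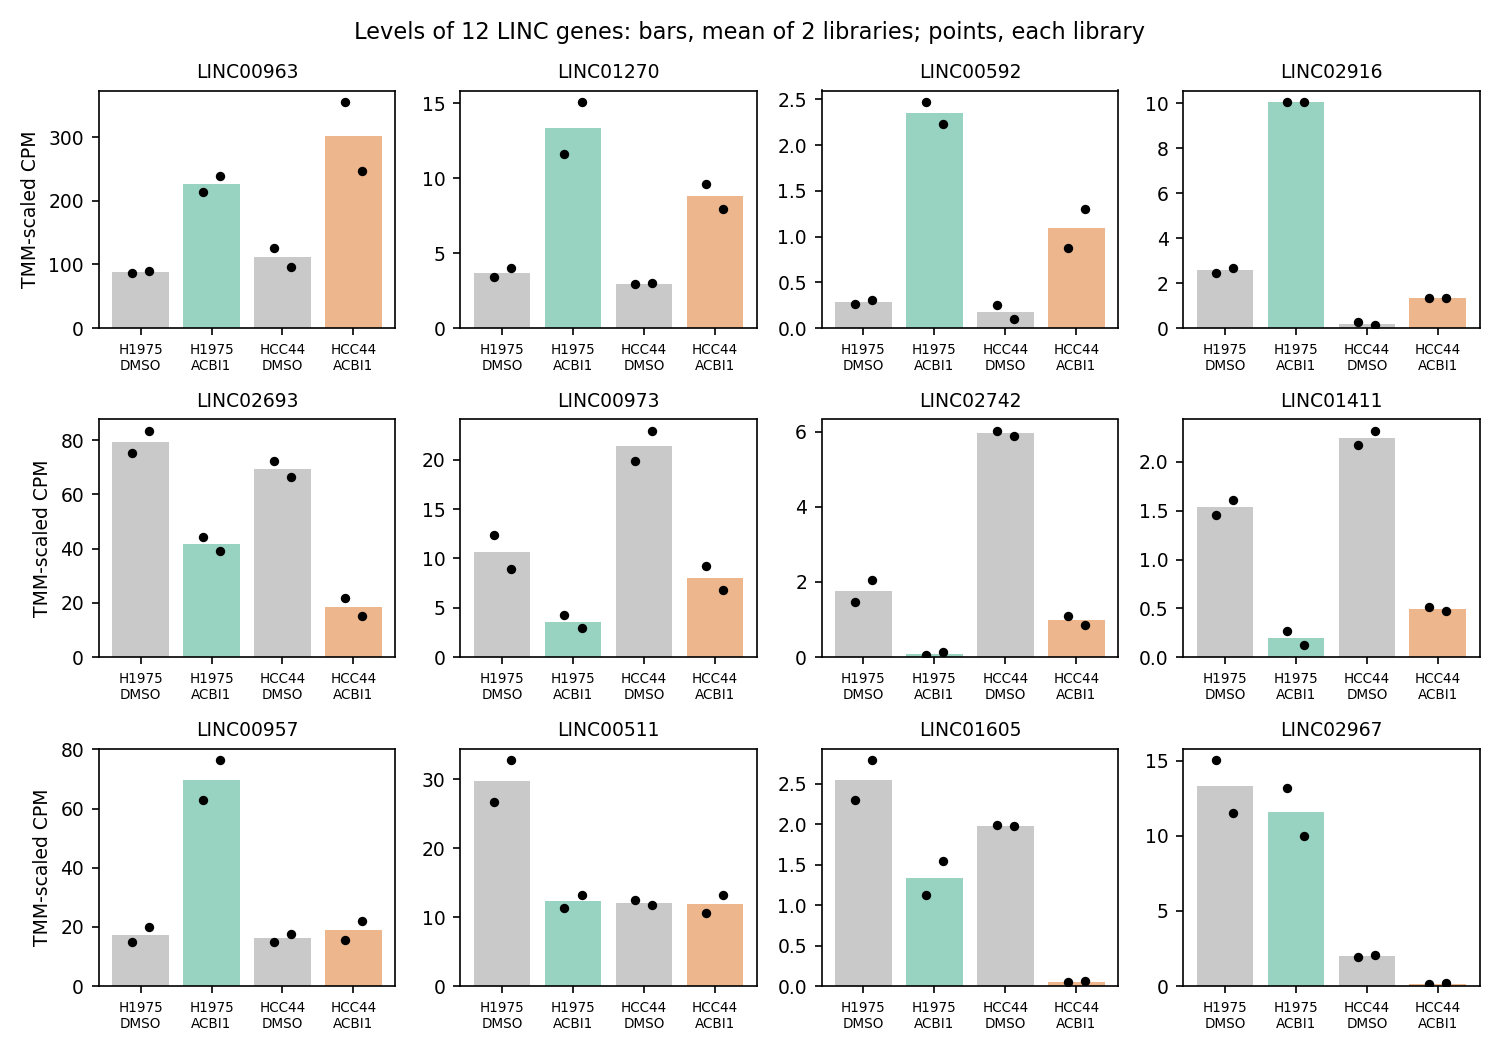
Levels of 12 LINC genes in TMM-scaled CPM, with a bar for the mean of the 2 libraries of a group and a point for each library. LINC00963, LINC01270, LINC00592 and LINC02916 rose in both lines, LINC02693, LINC00973, LINC02742 and LINC01411 fell in both, and in LINC00957, LINC00511, LINC01605 and LINC02967 the lines responded differently.

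The 13 shared falls were led in abundance by LINC02693, on chromosome 17 near the potassium channel gene KCNJ12. It was 75.4 and 83.5 CPM under DMSO and 44.3 and 39.2 CPM with ACBI1 in H1975. In HCC44 it was 72.5 and 66.3 CPM and 21.6 and 15.3 CPM. The fall was 0.93 ± 0.15 log2 in H1975 and 1.91 ± 0.15 in HCC44 (adjusted p = 0.00107 and 1.20e-05), larger in HCC44 by a tested difference of -0.98 ± 0.21 (adjusted p = 0.00926).

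LINC02742, an intergenic gene of chromosome 11, went from 1.48 and 2.04 CPM to 0.0532 and 0.127 CPM in H1975 and from 6.02 and 5.89 CPM to 1.10 and 0.849 CPM in HCC44. Its log2 fold changes were -4.27 ± 0.39 and -2.61 ± 0.28 (adjusted p = 4.27e-05 and 6.91e-05), and the H1975 value was -4.98 without H1975 ACBI1 replicate 2. LINC00313, on chromosome 21, went from 4.75 and 5.99 to 0.545 and 0.339 CPM in H1975 and from 2.19 and 2.32 to 0.816 and 0.739 CPM in HCC44. Both genes fell more in H1975, with tested differences of 1.66 ± 0.50 and 2.06 ± 0.39 log2. HSF2BP, which overlaps LINC00313 in RefSeq, was not called in either line.

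LINC00973, on chromosome 3 next to DCBLD2, was 12.4 and 8.90 CPM in H1975 and 19.9 and 22.9 CPM in HCC44 under DMSO. With ACBI1 it was 4.23 and 2.94 CPM and 9.22 and 6.75 CPM, so it fell in both lines (log2 -1.57 ± 0.23 and -1.42 ± 0.23), and the difference of 0.15 ± 0.32 was not called. LINC01411 went from 1.46 and 1.61 to 0.266 and 0.127 CPM in H1975 and from 2.18 and 2.32 to 0.512 and 0.472 CPM in HCC44, with log2 fold changes of -2.94 ± 0.34 (-3.54 without H1975 ACBI1 replicate 1) and -2.19 ± 0.31. LINC01094 went from 1.49 and 1.92 to 0.532 and 0.339 CPM and from 2.13 and 2.40 to 0.864 and 0.551 CPM. Its nearest coding gene ANXA3, an annexin, fell too, by 0.62 ± 0.11 and 1.23 ± 0.11 log2. LINC02970 fell from 19.4 and 17.9 to 2.13 and 1.90 CPM in HCC44 and, from a much lower level, from 0.683 and 0.858 to 0.0931 and 0.113 CPM in H1975. Its neighbour SLCO4A1 fell in HCC44, from 263 and 261 to 114 and 137 CPM, and was 42.2 and 41.2 and then 40.6 and 40.3 CPM in H1975.

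The other 6 shared falls lost a call in some settings. LINC00702 fell in HCC44 from 0.572 and 0.501 to 0.0960 and 0.0629 CPM. In H1975, where it was 3.49 and 3.84 and then 2.30 and 1.89 CPM, the call ended without any of the 4 H1975 libraries (log2 -0.92 to -0.65). LINC02762, at 8.55 and 10.6 and then 2.78 and 4.14 CPM in HCC44, lost its H1975 call without H1975 DMSO replicate 2 (-0.60), ACBI1 replicate 1 (-0.85) or ACBI1 replicate 2 (-0.67). LINC00888 lost its H1975 call without any of the 4 H1975 libraries (-0.59 to -0.38). LINC02057 lost its HCC44 call without HCC44 DMSO replicate 1 (-1.10) or 2 (-1.21) or ACBI1 replicate 1 (-0.76). LINC02861 lost its HCC44 call without any of the 4 HCC44 libraries (-1.19 to -0.85) and its H1975 call without H1975 DMSO replicate 2 (-0.48), among others. LINC01605 was 1.99 and 1.97 CPM in HCC44 under DMSO and 0.0480 and 0.0629 CPM with ACBI1, against 2.30 and 2.79 and then 1.13 and 1.54 CPM in H1975. It thus fell far more in HCC44, with a difference of -4.18 ± 0.49 log2 (adjusted p = 0.000427), and its smaller H1975 fall lost its call without H1975 DMSO replicate 2 (-0.73) or ACBI1 replicate 1 (-0.69).

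The promoter windows shown above were searched for 5 motifs on both strands. A window was available in RefSeq for 147 members, among them 9 of the 13 shared falls and 19 of the 25 shared rises. TGANTCA was present in 5 of the 9 windows of shared falls (55.6%), in 2 of 19 of shared rises (10.5%), in 3 of 57 of members called in neither line (5.26%) and in 7.76% of all 27305 windows. Of the falls with the motif, LINC00973, LINC01411 and LINC01094 kept both calls with each library left out. LINC00702 and LINC02762 lost their H1975 calls in some of these fits. Of the rises with it, LINC00963 kept both calls and LINC00513 lost its HCC44 call in some fits. In LINC00973 the letters were TGATTCA, starting 185 bases before the annotated start. In LINC01411 and LINC01094 they were TGAGTCA, starting 174 and 51 bases before it. In LINC00702 they were TGACTCA from base 15, and in LINC02762 TGAGTCA from base 37, both counted from 1 at the annotated start. LINC00963, which rose, also has TGAGTCA, at base 20. TATAAA, the TATA box, was in 6 of 19 windows of shared rises (31.6%), in 0 of 9 of shared falls and in 12% of all. GGAATG, bound by TEAD factors, was in 26.3%, 11.1% and 14% of windows, and CCAAT in 31.6%, 33.3% and 35.7%. TGACGTCA, the full cyclic AMP response element, was in none of these 28 windows and in 1.98% of all. None of the other motifs contains TGANTCA. These are counts of letters in short windows of few genes, and binding was not measured.

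**Figure D4:**
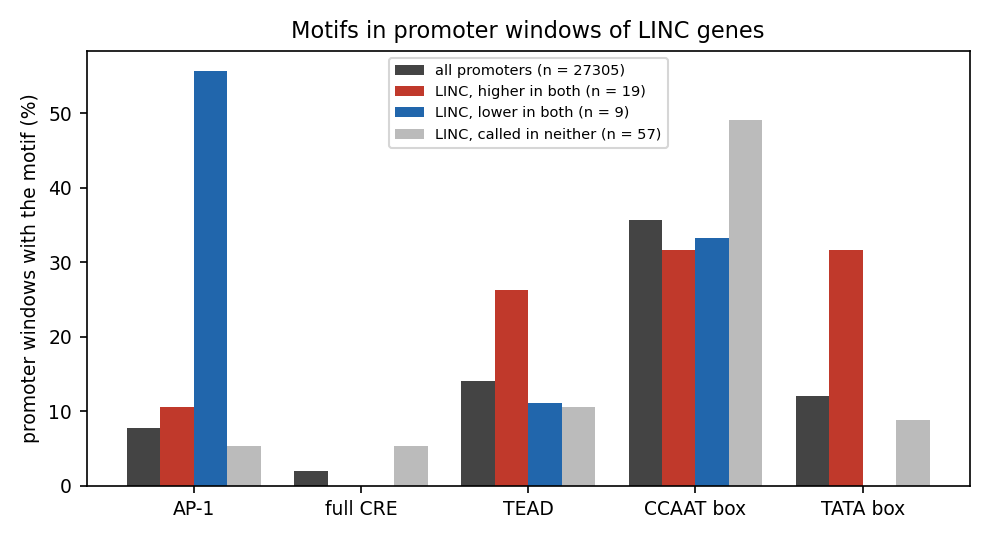
Share of promoter windows holding each of 5 motifs, in percent, for all 27305 RefSeq windows, 19 LINC genes higher with ACBI1 in both lines, 9 lower in both and 57 called in neither. The AP-1 bar of the genes lower in both lines stands at 55.6%, and that group has no TATA box in any window.

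In the test of the difference between the responses, 43 members (19.7%) were called, against 18.6% of all genes. The response was more positive in HCC44 for 22 (10.1%, against 10.2%) and more positive in H1975 for 21 (9.63%, against 8.4%). Of the 35 members called in H1975 and not in HCC44, the difference was called for 10, and of the 48 called in HCC44 and not in H1975 for 18.

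LINC00957, on chromosome 7 beside DBNL, rose in H1975. It went from 15 and 19.8 CPM to 62.8 and 76.5 CPM in H1975 and was 14.8 and 17.6 CPM and then 15.6 and 22 CPM in HCC44. The treated H1975 libraries lay above the other 6. The H1975 fold change was 2 ± 0.19 log2 and the difference -1.78 ± 0.27 (adjusted p = 8.77e-05 and 0.00207). DBNL, which encodes an actin-binding adaptor and lies 406 bases away, fell in H1975 from 146 and 147 to 84.6 and 85.3 CPM.

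LINC00511, a widely studied cancer-associated transcript, fell in H1975 from 26.7 and 32.8 CPM to 11.4 and 13.2 CPM (log2 -1.28 ± 0.16, adjusted p = 0.000223). In HCC44 it was 12.4 and 11.7 CPM and 10.6 and 13.2 CPM, and the difference between the lines was 1.26 ± 0.22 (adjusted p = 0.00362). The treated H1975 libraries came down to the level that HCC44 had with or without ACBI1. LINC02321, next to TTC7B, rose in H1975 from 2.14 and 2.16 CPM to 9.49 and 8.92 CPM against 1.37 and 1.79 and then 2.83 and 2 CPM in HCC44, with a difference of -1.48 ± 0.32 log2. TTC7B rose in H1975 too, from 37.4 and 39.7 to 62 and 63 CPM. LINC01638 fell in H1975 from 3.70 and 6.30 CPM to 0.465 and 0.622 CPM, and it was 0.111 and 0.0627 CPM and then 0.0160 and 0.0315 CPM in HCC44, where 11 counts under DMSO and 3 with ACBI1 gave no call (log2 -1.79 ± 0.86, adjusted p = 0.132).

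In HCC44, LINC02967 and LINC01589 fell outside the shared set. LINC02967 was 1.94 and 2.04 CPM under DMSO and 0.128 and 0.189 CPM with ACBI1, and 15.1 and 11.5 and then 13.2 and 9.98 CPM in H1975. LINC01589 was 1.95 and 1.99 and then 0.160 and 0.142 CPM in HCC44 and 5.87 and 5.16 and then 5.48 and 5.09 CPM in H1975. Both were lower in HCC44 than in H1975 before treatment and fell by 3.63 ± 0.31 and 3.69 ± 0.28 log2 there, with differences of -3.43 ± 0.38 and -3.63 ± 0.34 log2 (adjusted p = 0.000321 and 0.000124). The coding gene nearest to LINC02967 on chromosome 20 is CST7, which encodes the protease inhibitor cystatin F. CST7 was 12.2 and 17.6 CPM in HCC44 under DMSO and 0.160 and 0.173 CPM with ACBI1, a fall of 6.47 ± 0.31 log2 (adjusted p = 5.41e-07). FBLN1, an extracellular matrix gene beside LINC01589, was 39 and 50.4 and then 38 and 45.1 CPM in HCC44 and was not called there.

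Several members that were low in HCC44 rose there with ACBI1. LINC02593 went from 2.29 and 1.85 CPM to 7.23 and 18.6 CPM, a wide spread between replicates, and was 1.07 and 0.710 and then 0.465 and 0.438 CPM in H1975. Its divergent neighbour SAMD11 on chromosome 1 went from 30.2 and 28.3 CPM to 111 and 222 CPM in HCC44 with the same order of replicates. The difference for LINC02593 was 3.61 ± 0.64 log2, and 2.78 without HCC44 ACBI1 replicate 2. LINC01833, divergent from the homeobox gene SIX3, went from 0.207 and 0.0784 to 0.736 and 1.40 CPM in HCC44 (log2 2.89 ± 0.49, and 3.73 without HCC44 DMSO replicate 1), and SIX3 from 0.0477 and 0.0157 to 0.192 and 0.189 CPM. LINC02348 went from 0.620 and 0.517 to 3.41 and 5.21 CPM and was 0.0776 and 0.0591 and then 0.0399 and 0.0283 CPM in H1975. LINC00842 went from 0.0954 and 0.0940 to 1.04 and 0.692 CPM and was 1.49 and 1.60 and then 1.46 and 1.48 CPM in H1975. It lies in a duplicated region of chromosome 10, so its reads may be shared with near-identical copies. LINC02575 rose from 0 counts to 11 in HCC44, 3.69-fold against a floor of 3 counts (exact lower 95% limit, 2.52). It reached 0.128 and 0.0472 CPM. LINC01511 fell in HCC44 from 18 counts to 1, a ratio of 17.9 (exact 95% limits from counting error alone, 2.83 and 746). Its difference between the lines, -3.62 ± 0.88 log2, lost its call without HCC44 DMSO replicate 1 (-3.04) or HCC44 ACBI1 replicate 2 (-2.75), and was -6.01 without HCC44 ACBI1 replicate 1. LINC00665, at 0.350 and 0.235 and then 0.736 and 0.425 CPM in HCC44, lost its call there without HCC44 DMSO replicate 2 (0.73) or HCC44 ACBI1 replicate 1 (0.54).

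The 7 members called in opposite directions were LINC02604, LINC01239, LINC01426, LINC00707, LINC00629, LINC01271 and LINC01444, and the difference itself was called for all 7. LINC01239, on chromosome 9, rose in HCC44 from 13 and 15.6 CPM to 34.2 and 33.6 CPM and was 1.82 and 2.20 and then 1.14 and 1.53 CPM in H1975. LINC01426, beside the transcription factor gene RUNX1 on chromosome 21, fell in HCC44 from 9.38 and 9.34 to 3.71 and 3.32 CPM and was 1.49 and 1.30 and then 2.19 and 2.01 CPM in H1975. LINC01444 rose in HCC44 from 0.286 and 0.501 to 2.67 and 3.13 CPM and was 0.606 and 0.739 and then 0.346 and 0.325 CPM in H1975. In each of these 3 the HCC44 call stood with every library left out, and the H1975 call was lost without H1975 DMSO replicate 2 (LINC01239 -0.40, LINC01426 0.55, LINC01444 -0.80) among others. LINC02604 also kept its HCC44 fall, from 18.3 and 14.7 to 9.49 and 10.9 CPM, and lost its H1975 rise, from 25.8 and 22.1 to 33.6 and 31.6 CPM, without any of the 4 H1975 libraries (0.39 to 0.56). LINC01271 fell in HCC44 from 2.27 and 1.76 to 0.720 and 0.928 CPM, and in H1975 was 0.683 and 0.518 and then 1.28 and 1.40 CPM, a call lost without H1975 DMSO replicate 2 (1.02) or ACBI1 replicate 2 (1.11). It overlaps LINC01270 on the other strand, so without a known strand setting their reads may be mixed. LINC00707 (0.74 and -1.18 log2) and LINC00629 (0.92 and -0.92 log2) could each lose a call in either line, LINC00707 for example without H1975 ACBI1 replicate 1 (0.54) or HCC44 DMSO replicate 2 (-0.94) and LINC00629 without H1975 DMSO replicate 1 (0.74) or HCC44 ACBI1 replicate 2 (-0.79).

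A list of 25 LINC genes often studied in cancer or as sources of small peptides had 11 members here. In H1975, 5 of the 11 rose (LINC00963, LINC00460, LINC00707, LINC00857 and LINC00467) and 1 fell (LINC00511), where 14.6% of all genes rose and 16.7% fell. In HCC44, 4 rose (LINC00963, LINC00857, LINC00467 and LINC00665) and 1 fell (LINC00707), against 17.5% and 17.4% of all genes. LINC00460 rose in H1975 from 4.95 and 5.31 CPM to 8.43 and 10.2 CPM, and was 29.4 and 29 and then 39.8 and 33.9 CPM in HCC44 (log2 0.33 ± 0.13, adjusted p = 0.0743). With library totals LINC00460 was called in HCC44 too (0.425, adjusted p = 0.0286). It was 2.51 log2 higher in HCC44 under DMSO. LINC00467 rose in H1975 from 26.9 and 25 to 42.4 and 45.1 CPM and in HCC44 from 9.79 and 8.90 to 12.8 and 12.6 CPM, and its HCC44 call ended without HCC44 DMSO replicate 2 (0.38). LINC00472 and LINC00847 were not called with ACBI1 in either line, but both were called in some other settings. LINC00472 in HCC44 (log2 0.69 ± 0.29, adjusted p = 0.0905) was called with no low-count filter (adjusted p = 0.0239), with HCC44 fitted alone (0.0319) and without H1975 DMSO replicate 1 (0.0431) or 2 (0.0414), at about the same fold. LINC00847 in H1975 (log2 0.23 ± 0.14) was called with library totals (0.429, adjusted p = 0.0366), a setting that moved the median over all genes there to 0.18.

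Nearest protein-coding genes were read from RefSeq, in which 213 members matched, and overlaps from GENCODE 29, in which 216 matched. The median distance was 16284 bases, 156 members had their neighbour within 50 kb and 21 overlapped it. In GENCODE 29, 173 members had no overlap with a coding gene, 20 started divergently within 5 kb of a coding start, 9 overlapped a coding gene on the other strand and 14 on the same strand. The exons of 16 overlapped coding exons, which makes their counts uncertain.

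Members called with ACBI1 in H1975 had a neighbour called in the same direction in 12 of 63 cases with a tested neighbour (19%), and in the opposite direction in 16 (25.4%). Of the other non-coding genes called in H1975, 23.4% had a neighbour called the same way and 18.5% the opposite way. In HCC44 the counts were 30 of 76 (39.5%) in the same and 11 (14.5%) in the opposite direction, against 31.2% and 16.8% of other non-coding genes. Between the lines under DMSO, 63 of 131 (48.1%) had a neighbour called the same way, against 52.7%. Within 50 kb the H1975 counts were 7 of 43 (16.3%) in the same and 11 (25.6%) in the opposite direction, against 22.8% and 19.4% of other non-coding genes. In HCC44 they were 23 of 54 (42.6%) and 9 (16.7%), against 31.4% and 17%. Between the lines 51 of 96 (53.1%) had a neighbour within 50 kb called the same way, against 52.6%.

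**Figure D5:**
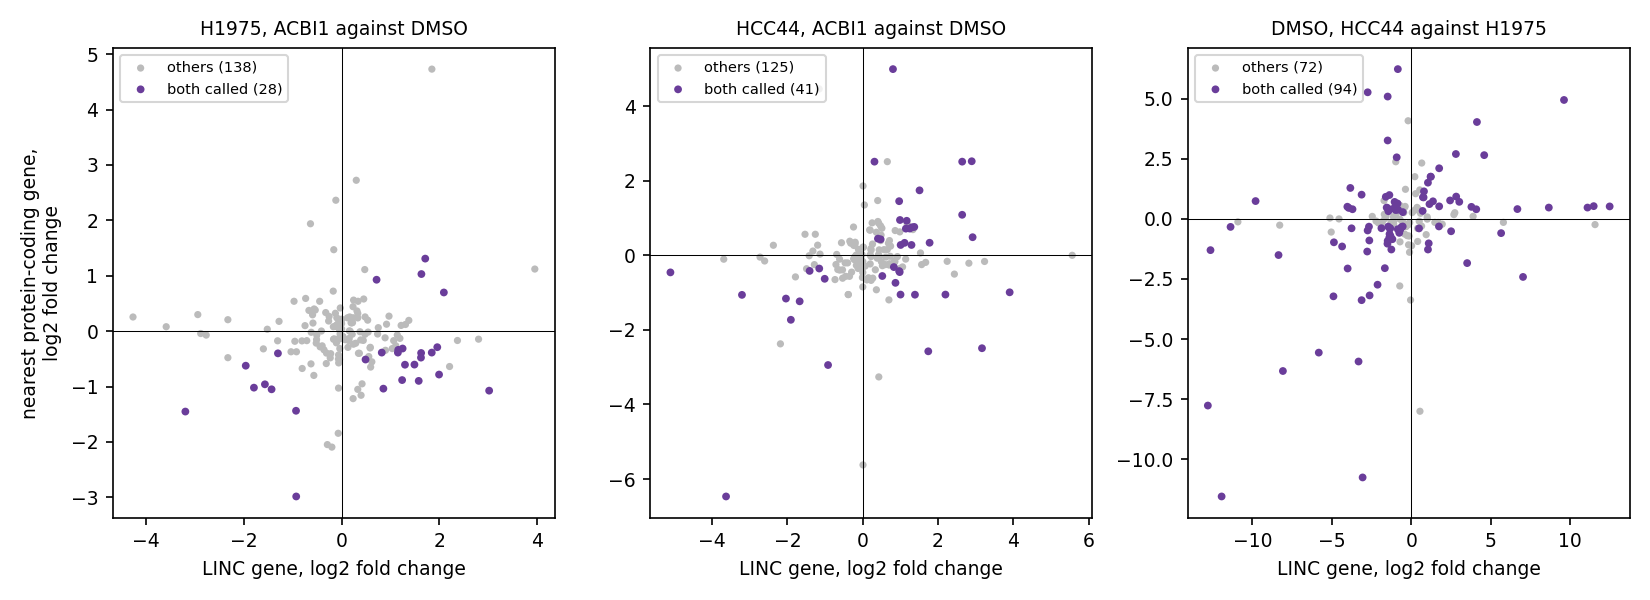
Log2 fold change of each LINC gene (horizontal) and of its nearest protein-coding gene (vertical), for ACBI1 against DMSO in H1975 and in HCC44 and for HCC44 against H1975 under DMSO. Purple points are pairs with both genes called, 28 in H1975, 41 in HCC44 and 94 between the lines. The H1975 panel has 16 such pairs in opposite directions and 12 in the same direction, and the HCC44 panel 11 and 30.

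Of the 20 divergent members, 10 rose, 0 fell and 10 were not called in HCC44, where 17.5% of all genes rose and 17.4% fell. In H1975 4 rose and 3 fell, against 14.6% and 16.7% of all genes. Under DMSO 13 were higher in H1975 and 4 in HCC44, against 36.4% and 31.6%. Besides LINC02593 and LINC01833, the HCC44 rises included LINC02918 beside IPO13 (log2 1.51), LINC01521 beside PATZ1 (1.17) and LINC02934 beside SPRED2 (2.20). The last of these rose in H1975 as well, a call that was lost without H1975 DMSO replicate 1 (0.96) or ACBI1 replicate 2 (0.99).

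The shares of all genes that rose and fell, 14.6% and 16.7% in H1975 and 17.5% and 17.4% in HCC44, stand beside the counts of 3 further lists. Of 24 long non-coding RNAs with other names, 23 were tested. In H1975 5 rose and 7 fell, and in HCC44 3 rose and 4 fell, with medians of -0.20 and -0.14 log2. NEAT1, the scaffold of nuclear paraspeckles, was 170 and 93.2 and then 83.5 and 64.1 CPM in H1975 and rose in HCC44 from 126 and 155 to 257 and 319 CPM. NORAD, a cytoplasmic RNA that binds PUMILIO proteins, fell in both lines, from 360 and 414 to 246 and 286 CPM and from 377 and 386 to 297 and 259 CPM. Of 16 genes of nuclear RNA decay, 1 rose and 2 fell in H1975 and 1 rose and 4 fell in HCC44. Of 10 targets of the CREB and CRTC factors, 2 rose and 2 fell in H1975, 3 rose and 1 fell in HCC44, and 8 were higher in HCC44 under DMSO, as were 31.6% of all genes.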

How the data were processed

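Total RNA of 8 samples, 2 in each of 4 groups, was made into libraries with a NEBNext Ultra II kit, per the labels' protocols. The deposited values are raw counts of reads per gene, made by the authors with TopHat2 2.1.1 and HTSeq 0.11.0 on hg38, per the submitters' processing notes. The annotation and the strand setting are not given in the sources used here, so overlapping genes cannot be separated. HTSeq's summary rows, 14.3 to 15.8% of each file, were left out of library sizes. CPM were computed from the remaining counts.

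All 4 groups were fitted together with edgeR 4.0.16 in R 4.3.3 (filterByExpr, TMM factors, robust quasi-likelihood test, 4 residual degrees of freedom), with Benjamini-Hochberg adjustment over 21307 genes and a threshold of 0.05. DESeq2 1.42.0, RLE size factors, library totals, no low-count filter, each line fitted alone, a replicate block and leaving out each library were alternatives. The script was tested on simulated data. Counting intervals are exact, at 95%, and they and the floor of 3 counts cover counting error only. Tables and figures used pandas 2.3.3 and matplotlib 3.10.9.

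The members, gene lists and rules were chosen with earlier results of these data known. Named genes were, by rule, the 10 members with the highest mean CPM, the 5 largest rises and 5 largest falls called in each comparison (group mean of at least 1 CPM, groups not overlapping), members of a list of 25 LINC genes studied in cancer or as peptide sources, and the nearest coding genes of the last 2 kinds. Groups were allowed to overlap for genes named by the difference between the responses. Other members called in both lines, restricted to a line, on chromosome 19 or divergent, with neighbours, were named after their values were seen. Lists of other long non-coding RNAs, nuclear RNA decay genes, CREB and CRTC targets, degrader targets and cell type markers were counted beside them. The endothelial markers summed to 0.439 to 4.01 CPM, the fibroblast markers to 25.4 to 406 CPM and the leukocyte markers to 0.768 to 3.43 CPM.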

Additional observations from a re-analysis of the deposited data

Results flagged for a closer look

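The response to ACBI1, taken as the log2 fold change in HCC44 minus that in H1975, differed between the lines by edgeR's test of the difference for 27 of the genes named by the rule or called in both lines. The difference was positive, so more upward in HCC44, for LINC02575 (5.82), LINC02348 (3.87), LINC01444 (3.87), LINC02593 (3.61), LINC00842 (3.23), LINC01833 (2.65), LINC01842 (2.41), LINC00313 (2.06), LINC01239 (1.84), LINC02742 (1.66), LINC00511 (1.26) and LINC00665 (1.05). It was negative for LINC01605 (-4.18), LINC01589 (-3.63), LINC01511 (-3.62), LINC02967 (-3.43), LINC01271 (-2.44), LINC01426 (-2), LINC02004 (-1.94), LINC00707 (-1.92), LINC00702 (-1.92), LINC00629 (-1.84), LINC00957 (-1.78), LINC02321 (-1.48), LINC02604 (-1.14), LINC02693 (-0.98) and LINC00888 (-0.69). The values of LINC02575 and LINC01511 rest on HCC44 groups with 0 and 1 counts, so their fitted size depends on the prior count, and LINC01511 lost its call without HCC44 DMSO replicate 1 (-3.04) or HCC44 ACBI1 replicate 2 (-2.75).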

How the results depend on the processing

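Values called in the fit of all libraries kept their sign in every alternative tried. With 1 library left out at a time, the genes called ranged from 3690 to 7161 in H1975, 4945 to 7342 in HCC44, 2341 to 4134 for the difference and 12940 to 14912 between the lines under DMSO, and the members called from 53 to 84, 63 to 91, 30 to 43 and 150 to 166. The genes called for the difference were 2481 without H1975 ACBI1 replicate 2 and 2598 without HCC44 DMSO replicate 2. The labels do not say that replicate numbers pair the libraries. Deviations of same-numbered libraries correlated at 0.589 in H1975 and 0.205 in HCC44, and at 0.00988 between the DMSO groups of the lines. A replicate block gave 6358 genes and 68 members called for the difference, and 111 members were called in H1975 and 119 in HCC44. Among named genes it called LINC03061 in H1975 (0.402, adjusted p = 0.0309) and HCC44 (-1.18, adjusted p = 0.000465), and in HCC44 LINC00460 (0.329, 0.0225), LINC00472 (0.705, 0.00945) and LINC00847 (-0.347, 0.0393), which were not called in the fit of all libraries without the block. Same-direction neighbours in H1975 were 12 of 63 (19%) at any distance and 7 of 43 (16.3%) in the subset within 50 kb. Signs turned for uncalled values only, and the cause was not tested. With library totals these were, in H1975, LINC00662 (0.107), LINC00665 (0.138) and LINC01278 (0.165), in HCC44 LINC00205 (0.081), LINC00511 (0.069) and LINC00662 (0.038), and between the lines LINC00667 (-0.103, and -0.002 with no filter). LINC00667 in HCC44 was -0.006 with DESeq2, -0.002 with RLE size factors and -0.009 with the block. With 1 library left out, H1975 values ranged for LINC00472 from -0.099 to 0.772, LINC00662 from -0.184 to 0.039, LINC00665 from -0.101 to 0.016, LINC01278 from -0.097 to 0.067 and LINC03061 from -0.341 to 1.05. HCC44 values ranged for LINC00205 from -0.147 to 0.14, LINC00511 from -0.183 to 0.128, LINC00662 from -0.128 to 0.021, LINC00667 from -0.185 to 0.169 and LINC00957 from -0.052 to 0.443. Between the lines, LINC00667 ranged from -0.029 to 0.099 and LINC00957 from -0.3 to 0.158. Alternatives for members called in both lines and not named by the rule, and leaving out DMSO libraries for line-restricted members, were chosen after seeing the data. With 2 libraries a group, a left-out library leaves an arm of 1, whose spread is assumed to equal that of the others.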
